A study of Mus musculus with 5 samples.

Results

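The paired-like homeobox genes Otx1, Otx2, Pitx1, Alx1, Alx4, Prrx1, Shox2 and Gsc were examined for binding of CBX2 in mouse embryonic fibroblasts (MEFs). They are 8 of the 22284 protein-coding genes of the annotation and were chosen by name, as paired-like genes known from the head and limb. Earlier results of these data were known when they were chosen. For each gene, the CBX2 peaks that overlapped the gene body extended by 5 kb on each side were taken from 3 lists of broad peaks, and their width, their edges and the presence of the annotated 5′ end were recorded. CBX2 had been mapped by ChIP-Seq on micrococcal nuclease-digested, crosslinked chromatin. The MEFs came from a mid-gestation embryo whose Eed gene carried loxP sites. Control cells were labelled as parental and floxed for Eed, and EZHIP and K27M cells were derived from the same MEFs. Cre recombinase was used for the EEDnull line of the series, which was not analysed here. EZHIP cells stably expressed human EZHIP, and K27M cells stably expressed the histone mutant H3.3 K27M, each from a lentiviral vector with the EF1a promoter under puromycin selection. Whether Control cells carried an empty vector is not given in the sources used here. Each group had 1 library and 1 list, of 289 (Control), 255 (EZHIP) and 327 (K27M) peaks, so no difference between lists had a replicate check and no test was run. The K27R library was not analysed here.

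Paired-like genes encode transcription factors with a homeodomain related to that of the Drosophila paired protein, and most of them act in short windows of embryonic development. In cells of other fates such genes are classic targets of Polycomb. Polycomb Repressive Complex 2 (PRC2) trimethylates lysine 27 of histone H3, and PRC1 complexes with a CBX subunit such as CBX2 can bind that mark and compact the chromatin. Both complexes gather at CpG islands, which are stretches rich in the CG dinucleotide, when the gene there is silent. EZHIP and H3.3 K27M each inhibit PRC2. Prrx1, Alx4 and Pitx1 are known regulators of limb mesenchyme, the tissue from which part of a MEF culture derives, whereas Otx1, Otx2, Gsc and Alx1 are known for roles in the early head, the brain or the face. Peak lists hold no RNA values, so neither the identity of the cells nor which of the genes were active in them could be checked here.

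The genes differed first in whether they held a peak at all. Otx2, Pitx1, Alx1 and Otx1 had a CBX2 peak in the Control list, and Prrx1, Alx4, Shox2 and Gsc had none in any list. Thus 4 of 8 genes had a peak in Control, where 1.48% of all protein-coding genes did. The genes were not chosen blind to these data, so such shares describe them and do not measure enrichment. In the EZHIP list 3 of 8 genes had a peak, against 1.43% of all genes, and in the K27M list 4 of 8 did, against 1.77%. A peak contained the 5′ end of 3 genes, Otx2, Pitx1 and Alx1, in every list. Over all protein-coding genes this was so for 0.902, 0.889 and 1.18% in the order Control, EZHIP and K27M. All 8 genes had a CpG island window near the 5′ end. Among the 12076 genes of that kind, 2.22% had a Control peak, 2.18% an EZHIP peak and 2.58% a K27M peak. The absence of a peak shows only that none was called, since the lists hold no heights and the read depth is unknown.

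**Figure D1:**
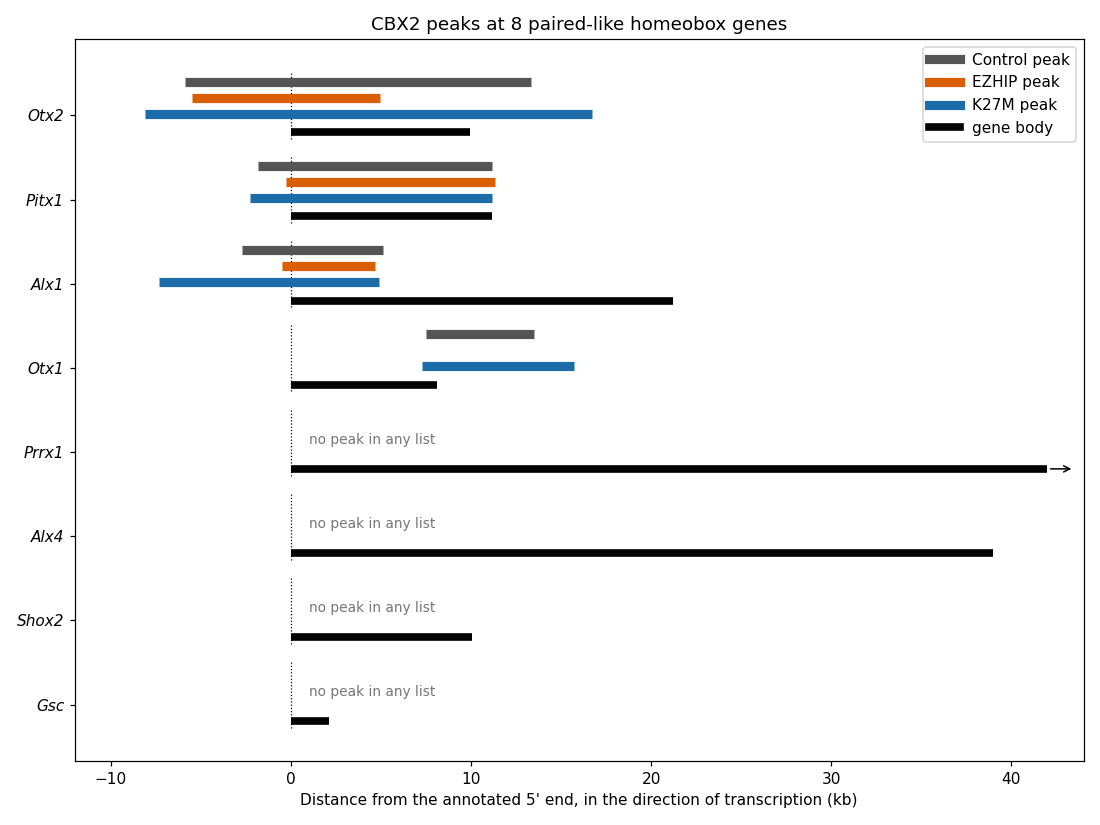
Position of CBX2 peaks relative to the annotated 5′ end of each gene (x axis, kb, in the direction of transcription), with peaks of the Control (grey), EZHIP (orange) and K27M (blue) lists above the gene body (black). The body of Prrx1 (68.6 kb) runs past the right edge. Peaks cover the 5′ ends of Otx2, Pitx1 and Alx1, the peaks of Otx1 lie at its 3′ end, and the other 4 genes have none.

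The sequence at these sites is shown for genes with a peak over the 5′ end and for genes without any peak, because the density of CG dinucleotides is the feature through which Polycomb sites are usually described. The 250 bases directly before the annotated 5′ end were read from the mm9 assembly (NCBIM37) on the strand of the gene, 5′ to 3′, and every CG is in capitals. CG reads the same on both strands. A window of this kind held a median of 8 CGs over all protein-coding genes, and 92.5% of the windows held at least 1. The first 3 windows lay under a Control peak. The windows of Prrx1 and Gsc lay under no peak.
Otx2 (chr14:49287320-49287569, minus strand, 6 CGs): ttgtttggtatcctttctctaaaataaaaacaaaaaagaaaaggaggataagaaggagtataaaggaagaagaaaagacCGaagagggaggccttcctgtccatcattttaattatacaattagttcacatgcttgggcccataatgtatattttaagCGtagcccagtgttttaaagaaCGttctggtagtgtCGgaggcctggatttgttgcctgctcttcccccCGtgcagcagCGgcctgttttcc
Pitx1 (chr13:55937554-55937803, minus strand, 21 CGs): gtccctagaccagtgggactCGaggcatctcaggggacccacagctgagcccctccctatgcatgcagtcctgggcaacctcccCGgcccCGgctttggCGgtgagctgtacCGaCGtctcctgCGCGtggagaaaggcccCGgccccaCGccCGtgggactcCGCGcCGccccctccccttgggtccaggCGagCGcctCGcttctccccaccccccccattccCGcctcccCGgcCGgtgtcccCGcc
Alx1 (chr10:102491686-102491935, minus strand, 10 CGs): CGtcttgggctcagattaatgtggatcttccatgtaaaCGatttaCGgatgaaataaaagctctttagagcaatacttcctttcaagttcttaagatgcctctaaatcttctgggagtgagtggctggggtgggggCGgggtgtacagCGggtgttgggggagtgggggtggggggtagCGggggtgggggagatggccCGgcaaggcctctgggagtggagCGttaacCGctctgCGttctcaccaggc
Prrx1 (chr1:165243842-165244091, minus strand, 4 CGs): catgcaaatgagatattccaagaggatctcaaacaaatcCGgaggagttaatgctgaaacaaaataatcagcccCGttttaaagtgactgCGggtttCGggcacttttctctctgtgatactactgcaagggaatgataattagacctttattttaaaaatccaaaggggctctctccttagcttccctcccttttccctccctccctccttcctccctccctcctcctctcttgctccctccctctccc
Gsc (chr12:105711538-105711787, minus strand, 11 CGs): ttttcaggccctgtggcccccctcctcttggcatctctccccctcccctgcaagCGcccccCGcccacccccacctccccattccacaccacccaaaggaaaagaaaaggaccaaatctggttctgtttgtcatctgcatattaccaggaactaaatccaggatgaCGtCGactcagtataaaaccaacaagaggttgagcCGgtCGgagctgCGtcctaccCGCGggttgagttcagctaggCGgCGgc

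The number of CGs in these windows did not separate genes with a peak from genes without one. The window of Otx2, with 6 CGs, was poorer than that of Gsc, with 11, and than those of Shox2, with 11, and Alx4, with 8. The window of Otx1 held 17 CGs and lay under no peak. Counted over 1 kb on each side of the 5′ end, Gsc had 148 CGs, the highest value of the 8 genes, and Shox2 had 130, Alx4 115 and Otx1 114. Of the genes with a peak there, Pitx1 had 104, Alx1 96 and Otx2 63, and the median over all genes was 61. Prrx1, with 53, was the only one of the 8 below that median.

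Otx2 is required to form the forebrain and midbrain and encodes a homeodomain activator. It spans 10.0 kb of the minus strand (chromosome 14, 49277354 to 49287319) and had the widest peak of the group in Control and K27M. The Control peak ran from 49274001 to 49293200 and was 19.2 kb wide. In EZHIP cells the peak ran from 49282401 to 49292800 and was 10.4 kb wide, and in K27M cells it ran from 49270601 to 49295400 and was 24.8 kb wide. The 3 lists thus differed at this gene mainly on the 3′ side. The EZHIP peak began within 0.4 kb of the Control peak on the upstream side but ended 8.4 kb earlier, in intron 2 of 4, whereas the Control and K27M peaks ran past the 3′ end. The Control and K27M peaks covered the whole gene body. The EZHIP peak covered 49.4% of it and left out the 3 coding exons, while 7 of 8 annotated coding transcript starts were still inside. The K27M peak extended beyond the Control peak by 2.2 kb upstream and 3.4 kb downstream.

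Otx1, the paralog of Otx2 that acts in the developing cortex and sense organs, differed from it in the place of its peak. The gene spans 8.1 kb of the minus strand (chromosome 11, 21894767 to 21902900). The Control peak was 6.0 kb wide (21889401 to 21895400) and the K27M peak 8.4 kb (21887201 to 21895600). Both started in the last exon and ran downstream, so that only 7.8% and 10.3% of the gene body lay in a peak. The 5′ end was 7.5 kb from the Control peak and 7.3 kb from the K27M peak. No EZHIP peak was called at Otx1, and the nearest one lay 2.07 Mb away. Of the 330 genes with a Control peak, 22.7% had no EZHIP peak and 16.7% no K27M peak. Within the group, 1 of 4 genes with a Control peak had no EZHIP peak and 0 of 4 lacked a K27M peak.

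The Otx1 peak lay over a CpG island of 1.6 kb beyond the 3′ end of the gene (21892617 to 21894216). The gene start had a longer island, of 2.55 kb, and 2 more islands lay in the body, but no list had a peak over any of these 3. The bin of 200 bases with the most CGs among the 26 bins of the Control peak outside annotated genes is printed from the minus strand, again with each CG in capitals, because it shows the sequence under a peak that is away from the gene start. It held 27 CGs and a G+C content of 77.5%. The Control peak as a whole was poorer, with 3.32 CGs per 100 bp and a G+C content of 46.6%, and 9 of its 30 bins touched an island.
Otx1, downstream bin (chr11:21893001-21893200): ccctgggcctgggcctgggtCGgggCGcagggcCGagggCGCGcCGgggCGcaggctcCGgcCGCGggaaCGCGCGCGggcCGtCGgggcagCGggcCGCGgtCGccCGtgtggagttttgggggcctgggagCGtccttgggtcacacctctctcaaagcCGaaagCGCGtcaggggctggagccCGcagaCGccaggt

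Alx1 patterns the frontonasal skeleton. It spans 21.2 kb of the minus strand (chromosome 10, 102470481 to 102491685) and had a peak over its 5′ end in every list. The Control peak measured 7.8 kb (102486601 to 102494400). The EZHIP peak measured 5.2 kb (102487001 to 102492200) and the K27M peak 12.2 kb (102486801 to 102499000). Here the lists differed on the upstream side. The downstream edges of all 3 peaks lay in intron 3 of 4 and within 0.4 kb of each other, and each peak held 2 of the 4 coding exons. Upstream of the 5′ end, the Control peak reached 2.71 kb, the EZHIP peak 0.515 kb and the K27M peak 7.32 kb. The start of the noncoding transcript Gm17028, just upstream of Alx1, was inside the Control and K27M peaks and outside the EZHIP peak.

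Pitx1, which specifies the hindlimb and acts in the pituitary, was the one gene of the limb mesenchyme set with a peak. It spans 11.1 kb of the minus strand (chromosome 13, 55926415 to 55937553). The Control peak measured 13.0 kb (55926401 to 55939400). The EZHIP peak measured 11.6 kb (55926201 to 55937800) and the K27M peak 13.4 kb (55926401 to 55939800). In every list the peak covered the whole gene body and all 3 coding exons and ended within 0.214 kb of the 3′ end. It was the gene of the group with the smallest differences between lists. The EZHIP peak was shorter by 1.6 kb at the upstream edge, which lay 0.247 kb before the 5′ end, and the K27M peak was longer by 0.4 kb there.

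**Figure D2:**
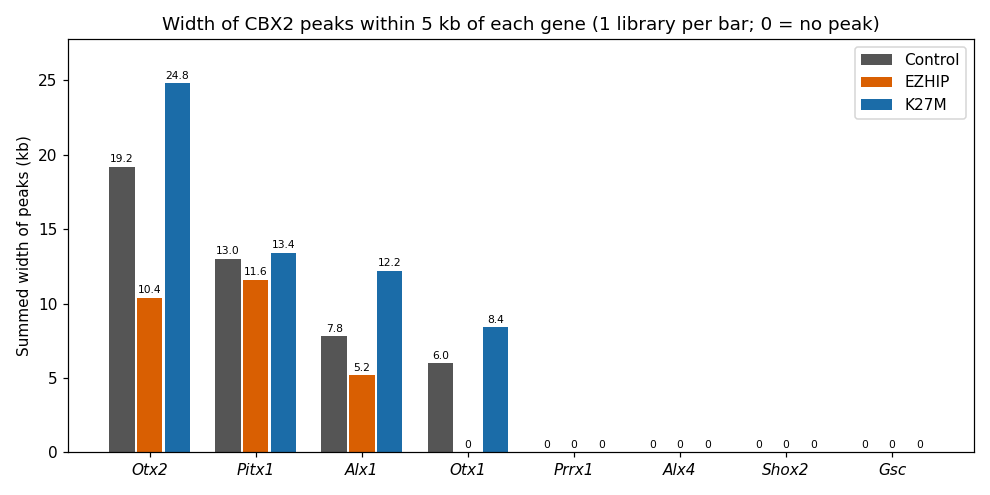
Summed width in kb (y axis) of the CBX2 peaks within 5 kb of each gene in the Control (grey), EZHIP (orange) and K27M (blue) lists, with 1 library per bar and therefore no error bars. At Otx2, Pitx1 and Alx1 the EZHIP bar is the lowest and the K27M bar the highest, and Otx1 has no EZHIP peak.

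Prrx1, a marker and regulator of limb bud and craniofacial mesenchyme, is the longest gene of the group (chromosome 1, 165175247 to 165243841, minus strand). The nearest peak was 4.38 Mb away in both Control and K27M, and 7.58 Mb away in EZHIP. Alx4, which acts in the limb bud and skull, lies on the plus strand (chromosome 2, 93482541 to 93521496). Its nearest peak was 4.98 Mb away in Control and K27M and 0.498 Mb away in EZHIP. No called peak was therefore close to the 5 kb limit at either gene.

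Shox2, which controls growth of the proximal limb and the palate and formation of the sinoatrial node, lies on chromosome 3 (66775649 to 66785693, minus strand), and its 5′ end overlaps the opposite gene Rsrc1. The nearest Control peak was 13.9 Mb away, the nearest EZHIP peak 26.5 Mb and the nearest K27M peak 16.1 Mb. Gsc, a gene of the gastrula organizer with a later role in the face, is the shortest of the group at 2.1 kb (chromosome 12, 105709419 to 105711537, minus strand). Its nearest peak was 11.3 Mb away in Control and 14.4 Mb in both other lists. Sequence that would hinder read placement was scarce at these starts. Of the 32-mers sampled within 5 kb of the 5′ end, 0% were multi-copy at Gsc, 1% at Shox2, 2% at Prrx1 and 4% at Alx4, and under the peaks of the other genes the values were 0% (Pitx1), 0.81% (Alx1), 1.21% (Otx2) and 4.76% (Otx1).

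The genes known for limb mesenchyme were set beside the head and neural genes. Of Prrx1, Alx4 and Pitx1, 1 of 3 had a peak in each list. Of Otx1, Otx2, Gsc and Alx1, 3 of 4 had a peak in Control and in K27M and 2 of 4 in EZHIP. The shares over all protein-coding genes were 1.48, 1.43 and 1.77% in Control, EZHIP and K27M. The groups were not cleanly apart. Pitx1 was covered end to end in every list, and Gsc was free of peaks like Prrx1 and Alx4. Shox2, a limb and heart gene kept apart from both sets, also had none. With 3 and 4 genes and 1 library per list, these counts describe the genes named and nothing wider.

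Where a gene had a peak in both lists, the direction of the width difference was the same at each gene. The EZHIP peak was narrower than the Control peak at 3 of 3 genes, with log2 width ratios of -0.88 at Otx2, -0.58 at Alx1 and -0.16 at Pitx1. Of all 255 genes with a peak in both lists, 56.5% had a narrower EZHIP peak, and the median log2 ratio was -0.06, against -0.58 for the 3 genes. The K27M peak was wider at 4 of 4 genes, with log2 ratios of 0.65 at Alx1, 0.49 at Otx1, 0.37 at Otx2 and 0.04 at Pitx1. Of all 275 genes with a peak in both lists, 61.5% had a wider K27M peak, and the median log2 ratio was 0.11, against 0.43 for the 4 genes. Both comparisons share the Control list, so they are not independent of each other. The shares and medians over all genes count genes, not peaks. A peak at several genes therefore enters once for each of them, and the genes named here are included. At Pitx1 the K27M difference was 0.4 kb, or 2 of the 200 bp bins in which peaks were called.

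The peaks mostly nested inside one another. The EZHIP peak lay wholly inside the Control peak at Otx2 and Alx1, and at Pitx1 it went past it by 1 bin. The Control peak lay wholly inside the K27M peak at Otx1, Otx2 and Pitx1, and at Alx1 97.4% of it did. The length shared by both lists over the length in either was 0.97 for Control and K27M at Pitx1, the highest value, and 0.54 for Control and EZHIP at Otx2, the lowest.

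**Figure D3:**
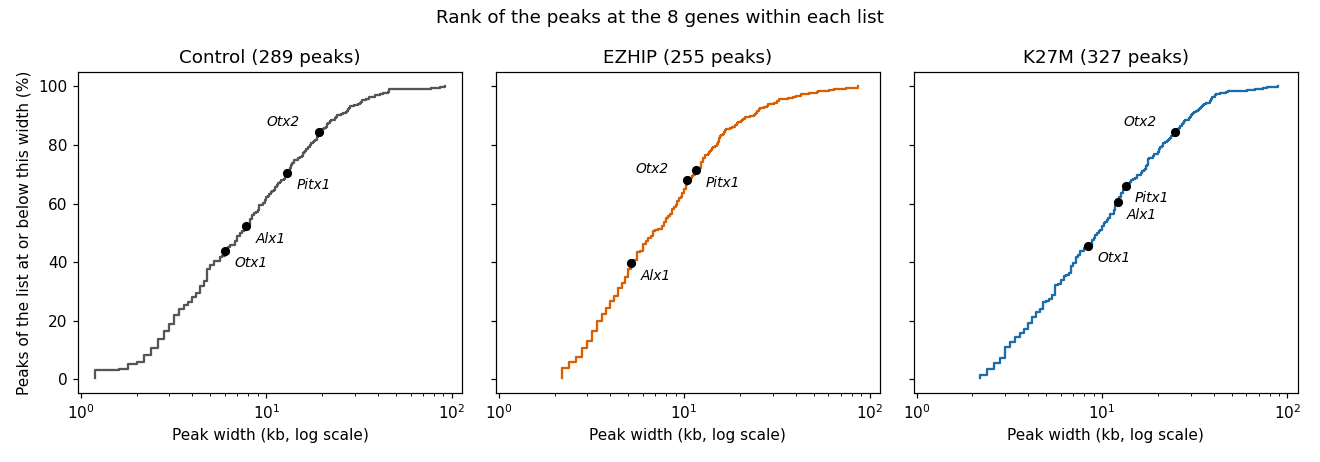
Cumulative share of the peaks of each list (y axis, %) by width (x axis, kb, log scale), with the peaks at the 8 genes as black points. Otx2 has the highest point of the 8 genes in the Control and K27M lists and lies just below Pitx1 in the EZHIP list.

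Widths were also read against all peaks of the same list, since the lists differ in their widths as a whole. The median peak was 7.4 kb wide in Control, 6.8 kb in the EZHIP list and 9.6 kb in the K27M list. The narrowest peak was 1.2 kb in Control and 2.2 kb in both other lists, and 17 Control peaks were narrower than that, so the smallest width kept was not the same in each list. Every peak at the 8 genes was at least 5.2 kb wide. A cut at 5000 bp in every list therefore could not change the counts or median widths of these genes. At Otx2, 15.6% of Control peaks were wider, 31.8% of EZHIP peaks and 15.6% of K27M peaks. At Pitx1 the values were 29.4, 28.6 and 33.9% in the same order, and at Alx1 47.8, 60.4 and 39.4%. At Otx1, 56.1% of Control and 54.4% of K27M peaks were wider. The lists differ in their number of peaks and in the narrowest width kept, so these shares place each peak within its own list and do not compare the conditions.

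The sequence of the parts that differed was then compared with the parts that were held in common. The genome as a whole had 0.829 CGs per 100 bp. The part in both Control and EZHIP had 4.25 CGs per 100 bp at Pitx1, 2.75 at Otx2 and 2.71 at Alx1. The part in Control but not EZHIP had 2.75 at Pitx1, 2.16 at Otx2 and 2.46 at Alx1, somewhat fewer than the common part at each gene. The Otx1 peak, absent from the EZHIP list, had 3.32. In the K27M comparison, the part found in K27M but not Control measured 2.4 kb at Otx1 and 4.6 kb at Alx1. It had 0.54 and 0.94 CGs per 100 bp there, close to the genome as a whole, and touched no CpG island. At Pitx1 this part was only 2 bins with 3 CGs (0.75 per 100 bp, no island touched), too few to weigh. Otx2 was the exception, with 2.79 CGs per 100 bp in the 5.6 kb found in K27M but not Control, more than the 2.48 of the common part, and 6 of these 28 bins touched an island.

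**Figure D4:**
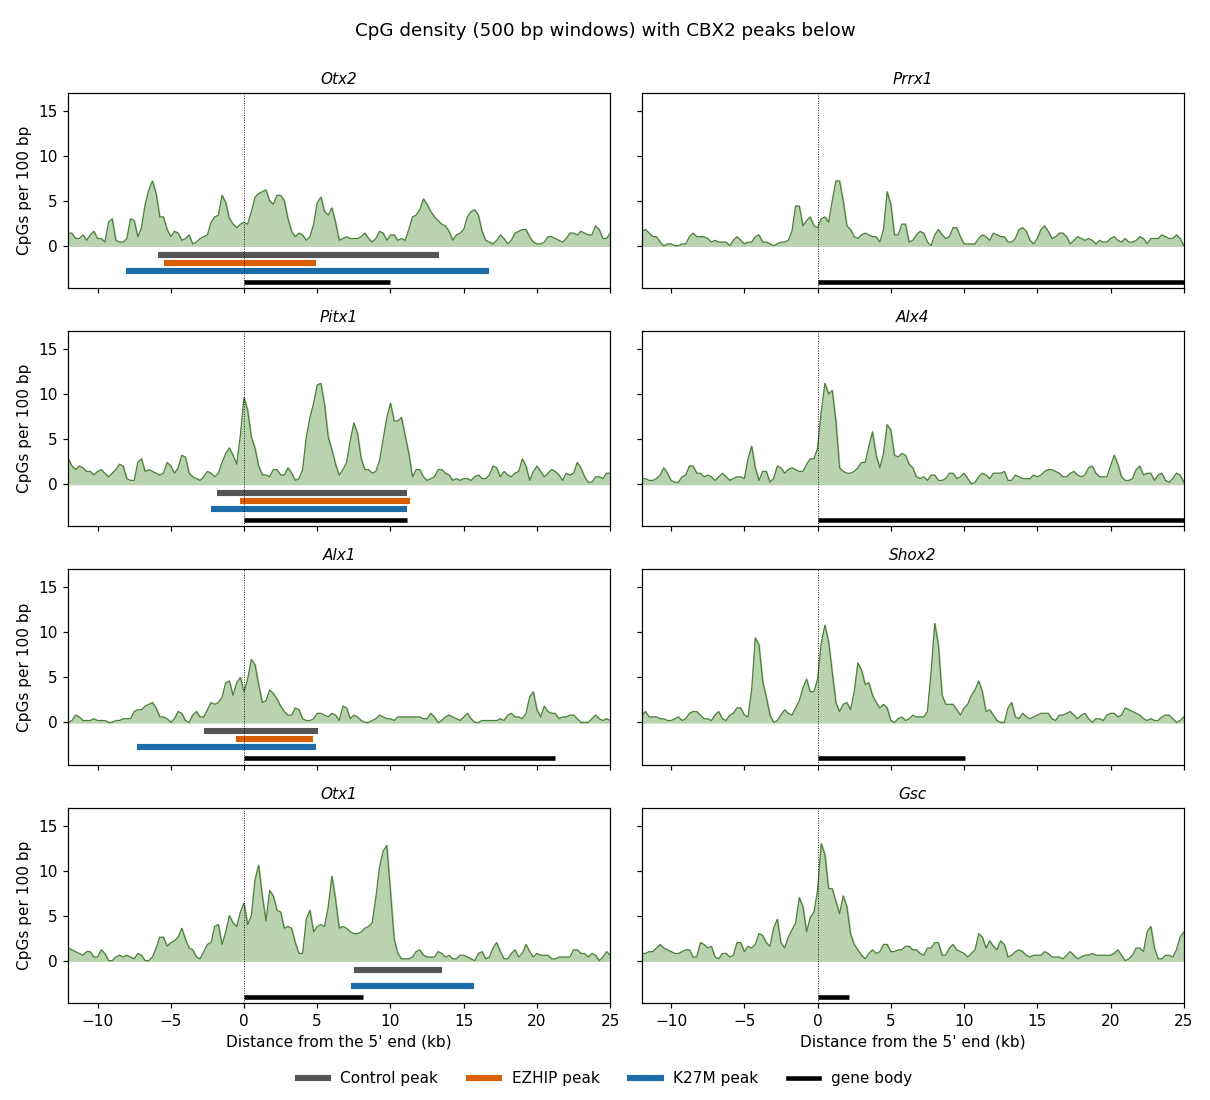
CpGs per 100 bp in windows of 500 bp (y axis, green) by distance from the 5′ end (x axis, kb, in the direction of transcription) for the 8 genes, with the peaks of each list and the gene body as bars beneath. The genes on the right have no peak in any list yet hold CpG-dense stretches at or near the start, and the Otx1 peaks lie under the dense stretch furthest from its start.

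CpG islands were frequent at the genes without peaks as well. Within 5 kb of the gene body there were 5 islands at Otx2, 4 each at Otx1, Pitx1 and Shox2, 3 at Alx4, 2 at Gsc and 1 each at Alx1 and Prrx1. Their summed length was 5.65 kb at Otx1, 5.15 kb at Pitx1, 4.55 kb at Shox2, 3.75 kb at Gsc, 3.65 kb at Otx2, 3.1 kb at Alx4, 1.55 kb at Alx1 and 0.9 kb at Prrx1. Genes with and without a peak thus overlapped in this measure. Peaks touched every island of Otx2, Pitx1 and Alx1 in Control and K27M. In EZHIP they touched 4 of the 5 at Otx2 and every one at Pitx1 and Alx1. The Otx2 island that was left out lay 11866 bp downstream of the 5′ end.

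The edges that differed most between EZHIP and Control were placed against the islands, a comparison chosen after the edges had been seen. The downstream EZHIP edge of Otx2 and the upstream EZHIP edge of Pitx1 lay inside an island, and the upstream EZHIP edge of Alx1 lay 70 bp from one. The matching Control edges were 0.953 kb (Otx2), 1.39 kb (Pitx1) and 2.27 kb (Alx1) from the nearest island. At the opposite edges of Otx2 and Pitx1 the order was reversed. The upstream Control edge of Otx2 lay inside an island and the EZHIP edge 254 bp from one. The downstream edges of Pitx1 lay 14 bp (Control) and 214 bp (EZHIP) from one. At Alx1 the downstream edges were 3.98 kb (Control) and 3.58 kb (EZHIP) away. Counting both edges of every peak at the 8 genes, 3 of 6 EZHIP edges, 2 of 8 Control edges and 1 of 8 K27M edges lay within 200 bp of an island. Over all peaks this held for 23.5% of EZHIP, 19.9% of Control and 19.4% of K27M edges.

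Other paired-like homeobox genes were examined by the same rule. The 17 reported here were all found in the annotation, Drgx under its older symbol Prrxl1. Of the 17, 4 had a peak in Control, 4 in EZHIP and 5 in K27M, compared with 4, 3 and 4 of the 8 genes above and with 1.48, 1.43 and 1.77% of all protein-coding genes. The 5′ end was in a Control peak for 3 of the 17, in an EZHIP peak for 2 and in a K27M peak for 5, against 0.902, 0.889 and 1.18% of all genes. The paralogs Pitx3, Crx, Prrx2 and Gsc2 had no peak in any list, so that in the Prrx and Gsc families no gene had one.

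**Figure D5:**
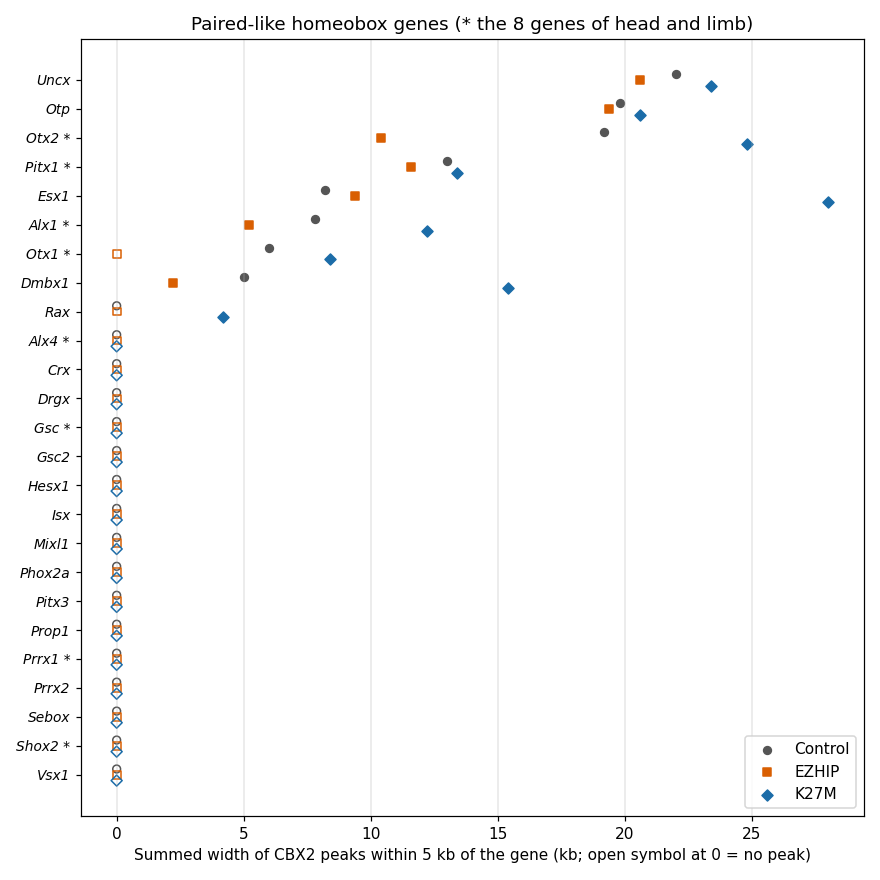
Summed width in kb (x axis) of CBX2 peaks within 5 kb of each of 25 paired-like homeobox genes in the Control (grey circles), EZHIP (orange squares) and K27M (blue diamonds) lists, with open symbols at 0 for genes without a peak and asterisks on the 8 genes of head and limb. The K27M symbol is the rightmost at each of the 8 genes with a Control peak.

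Outside these families, Uncx and Otp, regulators of the somites and hypothalamus, differed little between lists. Uncx had 22.0, 20.6 and 23.4 kb and Otp 19.8, 19.4 and 20.6 kb in Control, EZHIP and K27M. Esx1, a gene of the placenta and testis, had 8.2, 9.4 and 28.0 kb, and the 5′ end was outside its EZHIP peak. That peak was wider than the Control peak, unlike those of Otx2, Alx1 and Pitx1. Dmbx1, a gene of the midbrain, had 5.0, 2.2 and 15.4 kb, and its 5′ end was inside the K27M peak alone. Rax, a gene of the retina, had a peak in the K27M list (4.2 kb) and in no other. For the 4 of these genes with a peak in both lists, the median log2 width ratio was -0.06 for EZHIP to Control and 0.86 for K27M to Control.

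Across the 317 genes outside the group whose 5′ end lay in a peak of at least 1 list and that shared no peak with the group, the gene with the most similar widths was found for each gene with a peak, by the sum of absolute differences over the 3 lists. For Otx2 it was En2, with 16.4, 10.4 and 23.0 kb in the order Control, EZHIP and K27M and a summed difference of 4.6 kb. For Pitx1 it was Sox21 (13.4, 11.4 and 14.6 kb, summed difference 1.8 kb), and for Alx1 it was Lhx8 (6.8, 6.4 and 12.4 kb, 2.4 kb). For Otx1 it was Prdm12, which had 4.4 kb in Control and 8.4 kb in K27M and, like Otx1, no EZHIP peak, with a summed difference of 1.6 kb. Likeness over 3 lists is a description of widths only.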

How the data were processed

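The deposited files were 3 lists of CBX2 peaks, with chromosome, start and end per peak and no height, score or p-value. Per the labels and the published methods, the authors had aligned reads to mm9 with Bowtie 1.0.0 and called broad peaks in each library with Mosaics-HMM, which joins enriched bins across gaps. The published methods give a largest gap of 10000 bp for this joining. Every list still held neighbouring peaks nearer to each other than this, with the closest pair of Control peaks 5400 bp apart. Joining such neighbours left the Control list with 9 fewer peaks, the EZHIP list with 4 fewer and the K27M list with 5 fewer. The lists were therefore not joined throughout at the published gap. At the 8 genes the largest shift of an edge from Control was 8.4 kb, shorter than the published gap. Whether joining moved these edges was not tested. Use of an input and scaling before calling are not given in the sources used here. A default run of this aligner can place a read that matches several positions, and peak number and width both move with read depth, which is unknown.

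Starts were multiples of 200 bp and ends lay 199 bp above one, so peaks were treated as runs of whole 200 bp bins and are given 1-based. Genes came from GENCODE vM1 on NCBIM37, the same assembly, with overlapping records of one symbol merged. An island was any 500 bp window (step 50 bp) with G+C of 55% or more and a CpG ratio, observed to expected, of 0.65 or more, overlapping windows being joined, and counted as near a 5′ end within 1000 bp. The 32-mers were taken at steps of 100 bp and called multi-copy when the genome, both strands counted, held a further copy. Overlaps were computed in Python 3.11.15 with code tested on simulated data. The named genes were the 8 genes, the other paired-like genes with a 5′ end in a peak, protein-coding genes whose 5′ end shared a peak with the 8 (there were none) and the gene of most similar widths. Rsrc1, Gm17028, Drgx and the paralogs without a peak fell outside this rule and were named after their values were seen. Some paired-like genes of the list examined are not reported here, and its counts leave them out. Members and lists were chosen with earlier results of these data known.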

Additional observations from a re-analysis of the deposited data

How the results depend on the processing

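Over 14 results and 8 alternative settings, 101 values were computed, of which 88 were unmoved, 13 moved and 0 changed direction. Counts were called unmoved within 1.5 times, widths within 200 bp, log2 ratios within 0.05 and percentages within the exact binomial 95% interval. The numbers of the 8 genes with a peak or with the 5′ end in one, their median widths (10400 bp in Control over 4 genes, 10400 bp in EZHIP over 3, 12800 bp in K27M over 4) and their median log2 ratios were unmoved without a flank, with a 20 kb flank, with peaks of at least 5000 bp, with peaks closer than 10000 bp joined, by protein-coding transcripts, with an overlap of at least 1000 bp and with the 255 widest peaks of each list. That number is the whole EZHIP list, so 4 of the 88 unmoved values could not have moved for that reason. No peak at the 8 genes had more than 178 wider peaks in its own list, so each was among the 255 widest. The values of the 8 genes under this setting were therefore fixed in every list. The values of the 8 genes under the 5000 bp setting were also fixed, as each peak was at least 5.2 kb wide. Presence of the 5′ end in a peak did not depend on the flank or on the overlap. With a 20 kb flank, genes without a peak could gain none, their nearest peak being at least 0.498 Mb away. The setting with the 255 widest peaks and the genes with an island were chosen after the data were seen.

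The values that moved were percentages of all protein-coding genes with a peak, given here for Control, EZHIP and K27M. They were 1.18, 1.21 and 1.47% without a flank, 1.95, 1.82 and 2.37% with a 20 kb flank, 1.09, 1.04 and 1.34% with peaks of at least 5000 bp, and 2.22, 2.18 and 2.58% among genes with an island at the 5′ end. With the 255 widest peaks the K27M value was 1.4%. Each of these settings changes the flank, the peaks or the genes by its construction. A stricter score could not be tried, as the lists carry none. No paired analysis was possible because there was a single library for every group, which also left none to omit. Unknown read depth limits every comparison of width and of absence.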
